A study of Mus musculus with 2 samples.

Results

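The clustered histone genes are the multicopy genes that lie side by side in the mouse genome and encode the linker histone H1 and the core histones H2A, H2B, H3 and H4. They were taken as all genes whose symbol starts with Hist1h, Hist2h, Hist3h or Hist4h, which gave 67 of the 31053 genes measured. Of these, 6 encode H1, 18 H2A, 18 H2B, 12 H3 and 13 H4. In the GENCODE M21 annotation (genome build GRCm38, the build also called mm10), 54 lie on chromosome 13 between 21715763 and 23934851, and 10 lie on chromosome 3 between 96219865 and 96270132. A further 2 lie on chromosome 11 and 1 on chromosome 6. The question was which of them were confined to dividing cells and which were also read in resting B and T cells, in each library.

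Cells of the mediastinal lymph nodes (MedLNs), which drain the lung, were taken from WT C57/B6J mice 5 to 13 weeks of age with ovalbumin (OVA)-induced asthma. The mice were sensitized with 50 µg OVA on days 0 and 7 and challenged from day 14 to day 16, and lymph nodes were collected on day 17. The library labelled OVA came from mice without butyrate, and the library labelled C4 from mice given butyrate, a short-chain fatty acid. Each library holds the pooled cells of 4 mice, so each condition has 1 library, no test between conditions was possible and no p-value is given. All 95% intervals below cover counting error only and not the spread between mice.

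Histones are the proteins around which DNA is wound, and a cell that copies its DNA needs a matching supply of them. Most clustered histone genes are therefore transcribed during S phase, and their mRNAs usually end in a conserved stem-loop in place of a poly(A) tail, although several of these genes also give longer, polyadenylated transcripts. The libraries were made by priming on poly(A), so the counts hold only those histone transcripts that the priming reached, and they need not follow the total amount of histone mRNA.

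Each count is a unique molecular identifier (UMI), which stands for 1 captured transcript, and levels are given as UMIs of a gene per 1000000 UMIs of a class of cells (CPM). As each UMI is a 3′ tag, CPM was not divided by gene length. After filters and removal of doublets, 8774 cells without and 8013 with butyrate remained, with 52007831 and 51930922 UMIs. A cell was called cycling with at least 2 UMIs of Mki67 and Top2a together, 2 markers of dividing cells, and resting with none. A dividing cell read at low depth can hold no UMI of either marker, so the resting classes may include some dividing cells. How many was not tested. B cells were recognised by a list of markers that includes Cd79a, Cd79b and Ms4a1, and T cells by Cd3d, Cd3e, Cd3g, Trac and Trbc2. This gave 224 cycling cells without (2.55% of cells) and 131 with butyrate (1.64%), 3932 and 3786 resting B cells, and 4157 and 3696 resting T cells. B cell markers stood at 5881 and 6019 CPM in resting B cells and at 2468 and 2542 CPM over all kept cells. In resting T cells they stood at 46.7 and 46.2 CPM, 0.794% and 0.767% of the resting B cell level. T cells were picked for few of these markers, so this value can understate how far RNA from other cells reached. No level below was corrected for such RNA. The median depth was 16183 and 14183 UMIs in cycling cells, 4344 and 4597 in resting B cells, and 5633 and 6630 in resting T cells. The 2 libraries shared 25 cell barcodes.

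A stem-loop of the histone type was found in an annotated transcript of 36 of the 67 genes, against 0.0907% of the 30867 other genes searched. Some annotated transcripts hold the coding sequence only, and sequence past an annotated end was not searched. The search used a fixed pattern of letters, so a stem-loop with other letters would be missed. The sequences below, read from the GENCODE M21 transcripts 5′ to 3′, are shown because the distance from the stem-loop to the annotated end differed between the groups of genes described later. Capitals mark the stem-loop. Hist1h2ap, Hist1h2ae and Hist1h2ab were at least 10-fold higher in cycling than in resting cells, and Hist1h1e and Hist1h4d were raised by less. Hist3h2a, Hist3h2ba and Hist4h4 were as high or nearly as high in resting cells.
Hist1h2ap: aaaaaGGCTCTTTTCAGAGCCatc
Hist1h2ae: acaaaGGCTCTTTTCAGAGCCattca
Hist1h2ab: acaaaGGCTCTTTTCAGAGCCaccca
Hist1h1e: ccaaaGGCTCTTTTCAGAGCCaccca
Hist1h4d: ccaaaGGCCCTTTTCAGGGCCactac
Hist3h2a: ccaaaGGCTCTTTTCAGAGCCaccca
Hist3h2ba: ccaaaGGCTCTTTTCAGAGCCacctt
Hist4h4: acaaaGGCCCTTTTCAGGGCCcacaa

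These stem-loops lie at chr13:21833029-21833044 (minus strand) for Hist1h2ap, chr13:23570668-23570683 (minus) for Hist1h2ae and chr13:23751572-23751587 (plus) for Hist1h2ab. They lie at chr13:23621782-23621797 (minus) for Hist1h1e, chr13:23581950-23581965 (plus) for Hist1h4d, chr11:58955172-58955187 (plus) for Hist3h2a, chr11:58949349-58949364 (plus) for Hist3h2ba and chr6:136803998-136804013 (minus) for Hist4h4. All of them lie in genes with 1 annotated exon. The form with the stem of Hist1h2ap was present in 26 genes of the H1, H2A, H2B and H3 families. The form of Hist1h4d was present in 7 genes and 2 further forms in 3, and all 10 encode H4.

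Histone UMIs were concentrated in cycling cells but were not restricted to them. Cycling cells held 47.1% (95% interval 46.6 to 47.5) of all clustered histone UMIs without butyrate and 31.1% (30.7 to 31.6) with butyrate, although they held only 8.22% and 5.06% of all UMIs. The summed level was 5411 CPM without and 4278 CPM with butyrate in cycling cells, 675 and 650 CPM in resting B cells, and 435 and 391 CPM in resting T cells. Cells with a single UMI of Mki67 or Top2a, 350 and 298 of them, stood at 548 and 501 CPM, within the range of the resting classes. In both libraries 4 genes gave most of the UMIs, 53.3% without and 51.9% with butyrate: Hist1h1e, Hist1h1b, Hist1h2ap and Hist1h1c.

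Of the 67 genes, 59 had at least 20 UMIs over both libraries and were sorted by their level in cycling over resting B and T cells. Of these, 19 were at least 10-fold higher in cycling cells in both libraries and are called cycling-confined, 23 were between 2-fold and 10-fold higher in both and are called raised, and 5 were under 2-fold in both and are called seen in resting cells. The remaining 12 fell into different ranges in the 2 libraries, and 8 genes had fewer than 20 UMIs. The name cycling-confined marks the ratio only and does not mean absent from resting cells. Cycling cells held 79.7% without and 67.8% with butyrate of the UMIs of those 19 genes. Hist1h2ba and Hist1h2aa, which encode testis variants of H2B and H2A, had no UMI in either library. Per library, 24 and 22 genes were at least 10-fold, 28 and 30 between 2-fold and 10-fold, and 7 and 7 under 2-fold. Because the genes were sorted by this ratio, the ratios are a description, and when every cell was thinned to 2000 UMIs 10 genes were cycling-confined and 8 seen in resting cells. Among all 10854 genes with enough UMIs without butyrate, 2.67% were at least 10-fold and 13.8% at least 2-fold higher in cycling cells, against 17 and 39 of 46 clustered histone genes. With butyrate the values were 2.68% and 14.7% of 10803 genes, against 14 and 35 of 42.

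**Figure D1:**
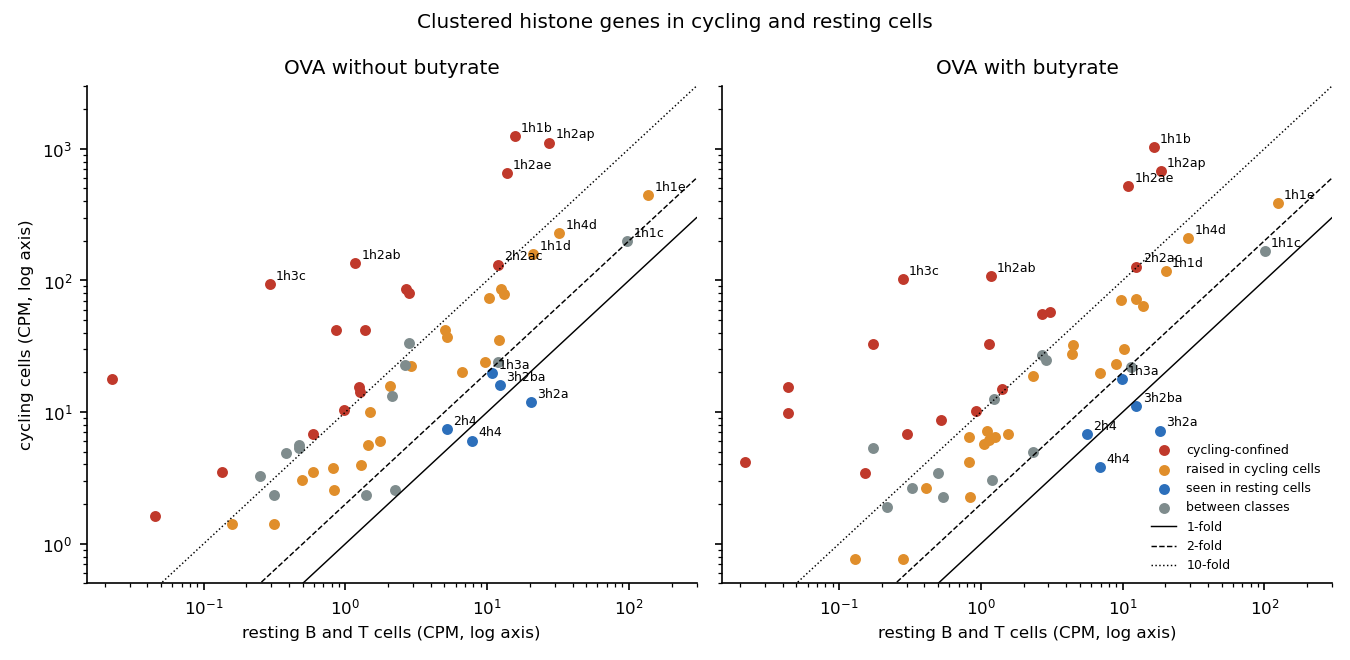
Level of each detected clustered histone gene in cycling cells (vertical axis, CPM, log scale) against resting B and T cells (horizontal axis, CPM, log scale), 1 panel per library, coloured by group, with lines at equal level, 2-fold and 10-fold; genes with no UMI in either class are not drawn. Hist1h1b, Hist1h2ap and Hist1h2ae lie far above the 10-fold line in both libraries, Hist1h1e and Hist1h1c lie near the 2-fold line at the right, and Hist3h2a and Hist4h4 lie below the line of equal level.

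The families were not spread evenly over these groups. The 19 cycling-confined genes were 2 of the 6 H1 genes, 7 of the 18 H2A genes, 7 of the 18 H2B genes and 3 of the 12 H3 genes, and 0 of the 13 H4 genes. H4 genes were raised in 8 cases and H3 genes in 7. The 3 H4 genes that changed range between the libraries were each at least 10-fold in 1 of them. The 5 genes seen in resting cells were Hist3h2a (H2A), Hist3h2ba (H2B), Hist1h3a (H3), Hist2h4 and Hist4h4 (H4), so that each core histone, but not H1, had a member in this group. On chromosome 13, 18 genes were cycling-confined and 1 was seen in resting cells, while the 3 genes outside chromosomes 13 and 3 were all seen in resting cells.

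Among linker histones, which bind DNA where it enters and leaves the nucleosome, Hist1h1b had the highest level of any cycling-confined gene. It stood at 1242 CPM (1208 to 1275) in cycling cells without and 1031 CPM (992 to 1070) with butyrate, against 30.5 and 32.7 CPM in resting B cells and 3.94 and 3.94 CPM in resting T cells. The ratio of cycling to resting cells was 79.6 (73.5 to 86.3) without and 62.2 (57.4 to 67.5) with butyrate. Hist1h1b thus differed strongly between the resting lineages. Its ratio was 354 and 285 within T cells alone, and 37.3 and 28.3 within B cells alone. Hist1h1a was lower, at 86.8 and 55.6 CPM in cycling cells, with ratios of 32.3 and 20.7.

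Among H2A genes, the core histone that pairs with H2B, Hist1h2ap stood at 1116 CPM (1084 to 1148) in cycling cells without and 675 CPM (644 to 707) with butyrate. In resting B cells it stood at 42.4 and 30.1 CPM and in resting T cells at 15.6 and 9.58 CPM, which gave ratios of 40.8 and 36.4. Its annotated transcript of 482 bases ends 3 bases after the stem-loop and holds a run of 12 A. Every window of its last 300 bases is shared with other H2A genes, so reads there do not tell it from its near copies. How such reads were counted was not tested, and its level is less certain for this reason. Hist1h2ae stood at 658 and 525 CPM in cycling cells, with ratios of 47.8 and 47.7, and only 7.11% of such windows of its transcript were shared. Hist1h2ab stood at 136 and 109 CPM with ratios of 116 and 92.8, with 45 and 41 UMIs in resting B cells and 7 and 13 in resting T cells. Of such windows of the Hist1h2ab transcript 64.45% were shared.

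Hist2h2ac, an H2A gene of the cluster on chromosome 3, was the least confined of the 6 highest genes. It stood at 132 and 128 CPM in cycling cells, 13.7 and 15.3 CPM in resting B cells and 10.5 and 10.4 CPM in resting T cells, ratios of 11.1 and 10.2. Within B cells its ratio was 8.74 and 6.203. Cycling cells held 49.6% and 35.1% of its UMIs. Hist2h2ac shared no window of its last 300 bases with another gene.

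The 3 cycling-confined H3 genes, whose products pair with H4, had hardly any UMI in resting cells. Hist1h3c stood at 93.8 and 102 CPM in cycling cells and had 13 resting UMIs in each library, a ratio of 320 (185 to 606) without and 362 (208 to 689) with butyrate. Hist1h3b had 61 cycling and 0 resting UMIs without butyrate. With 3 counts taken as the upper limit of a count of 0 in the class, its ratio was 211. That value leaves out the counting error of the cycling UMIs, and the lower limit of the counting interval was 166.2. With butyrate Hist1h3b had 26 and 2 UMIs, a ratio of 229 (57.2 to 1986). Hist1h3g had 21 and 0 UMIs without and 11 and 1 with butyrate. Without butyrate its ratio with 3 counts in place of 0 was 72.6, and the lower limit of its counting interval was 53.97. These H3 genes were chosen after their values were seen, except Hist1h3c.

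Hist1h2bh, an H2B gene with 61 and 39 cycling UMIs, was just inside the 10-fold limit, at 11.3 and 10.5. Hist2h2bb (12.04 and 8.59) and Hist1h2ak (8.76 and 10.1) were just outside it. The H4 genes Hist1h4j (11.35 and 8.20), Hist1h4f (13.19 and 8.79) and Hist1h4k (7.40 and 30.75) passed it in 1 library only, on 5 to 23 cycling UMIs. Hist1h2be, at 2.02 and 1.92, was just outside the group seen in resting cells, where Hist1h3a was just inside at 1.83 and 1.81.

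Within single lineages the limit of 10-fold was passed by all cycling-confined genes in T cells but not in B cells. Of the 19 genes, 19 and 19 were at least 10-fold higher in cycling than in resting T cells, and 16 and 14 in cycling than in resting B cells. In both lineages of both libraries 13 passed. Where the resting class had no UMI, a gene counted as passing with any cycling UMI. These ratios use the same cells as the sorting. Their sum stood at 3239 and 2673 CPM in cycling B cells (83 and 43 cells) and at 4238 and 3023 CPM in cycling T cells (108 and 72 cells). In resting B cells it was 126 and 111 CPM, and in resting T cells 48.1 and 38.8 CPM.

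**Figure D2:**
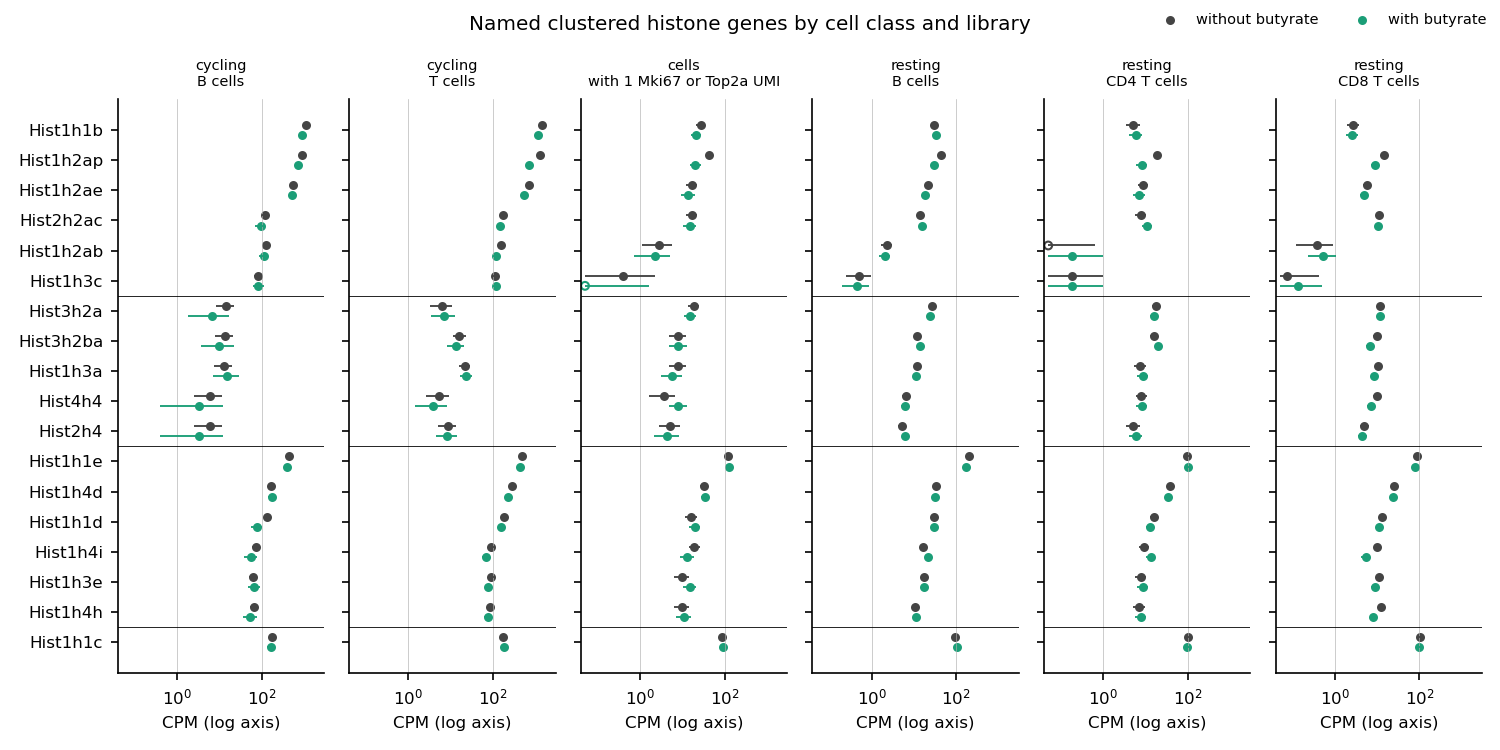
CPM (log axes) of 18 named clustered histone genes in 6 classes of cells, dark points without and green points with butyrate, with lines for the 95% counting interval and open points at the left edge for genes with no UMI. Rows from top to bottom are cycling-confined genes, genes seen in resting cells, raised genes and Hist1h1c; the top rows drop by more than 10-fold from cycling to resting cells of the same lineage, except Hist2h2ac in B cells, and the second block shows no such drop.

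The raised genes had a higher summed level in resting cells than any other group, 368 and 345 CPM in resting B cells and 210 and 187 CPM in resting T cells. Hist1h1e, a linker histone, had the most UMIs of this group, 8451 without and 7135 with butyrate. It stood at 446 and 390 CPM in cycling cells, 194.9 and 174 CPM in resting B cells and 92.2 and 85.7 CPM in resting T cells, ratios of 3.25 and 3.14. Hist1h1d, another linker histone, stood at 159 and 118 CPM in cycling cells, with ratios of 7.51 and 5.83. Hist1h1e and Hist1h2be overlap on the minus strand, and the end of the Hist1h1e transcript is shared in full with a Hist1h2be transcript. How reads there were counted, or whether they were left out, was not tested. The level of Hist1h1e is less certain for this reason.

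Among raised H4 genes, which encode the partner of H3, Hist1h4d led with 230 and 210 CPM in cycling cells and 33.98 and 31.8 CPM in resting B cells, ratios of 7.15 and 7.24. Hist1h4i (6.94 and 4.58), Hist1h4h (7.18 and 7.31) and the H3 gene Hist1h3e (5.995 and 5.84) had ratios of the same order. The last 300 bases of Hist1h3e and of Hist1h3f are shared in full with each other, so reads there do not tell them apart. Of such windows of Hist1h4h 56.87% were shared with other H4 genes, and of those of Hist1h4d and Hist1h4i none. Over resting B and T cells together, none of the 6 raised genes with the most UMIs came under 3-fold. Within B cells alone the ratio was 2.25 and 2.34 for Hist1h1e, 4.48 and 2.64 for Hist1h1d and 4.55 and 2.60 for Hist1h4i. Hist1h4d, Hist1h4h and Hist1h3e stayed above 3-fold in B cells, and all 6 did so within T cells.

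Of the genes seen in resting cells, Hist3h2a and Hist4h4 were lower in cycling cells in both libraries. Hist3h2a stood at 11.9 CPM (8.88 to 15.7) in cycling cells without and 7.23 CPM (4.36 to 11.3) with butyrate, and at 27.0 and 24.4 CPM in resting B cells and 15.1 and 13.5 CPM in resting T cells. Its ratio was 0.587 (0.43 to 0.78) without and 0.396 (0.24 to 0.62) with butyrate, while Hist4h4 had ratios of 0.78 (0.50 to 1.16) and 0.55 (0.26 to 1.03), whose intervals span equal levels and whose log2 ratio without butyrate was 0.14 after thinning. Hist3h2ba (1.31 and 0.88), Hist2h4 (1.44 and 1.22) and Hist1h3a (1.83 and 1.81) were near equal or slightly higher in cycling cells. Among all genes tested, 49.1% without and 46.1% with butyrate were lower in cycling than in resting cells, against 2 of 46 and 3 of 42 clustered histone genes.

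Hist1h1c, a linker histone placed between groups because its ratio was 2.03 and 1.66, had the highest level of the clustered histone genes in resting T cells. It stood at 198 and 166 CPM in cycling cells, 93.3 and 106 CPM in resting B cells and 101 and 96.2 CPM in resting T cells. In the few plasma cells, 14 without and 3 with butyrate, it stood at 354 CPM (289 to 430) and 232 CPM (138 to 367). Hist1h1c thus had nearly the same level in both resting lineages, unlike Hist1h1e, which was about 1.08 and 1.02 higher on the log2 scale in resting B than in resting T cells.

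The summed level was higher in resting B than in resting T cells, as given above, and single genes differed between the lineages. Of the 59 detected genes, 19 were higher in resting B cells in both libraries with counting intervals apart from equal levels, and 1 (Hist2h2bb) was higher in resting T cells. By the same rule 29.4% of all 13430 genes with as many UMIs were higher in resting B cells and 22.7% in resting T cells, so the count of genes higher in B cells is close to the background. Of the 19 cycling-confined genes, 7 were among those higher in B cells and 0 among those higher in T cells. As log2 differences of B over T cells, Hist1h1b stood at 2.95 and 3.05, Hist1h2ap at 1.44 and 1.65, Hist1h2ae at 1.57 and 1.75, and Hist3h2a at 0.84 and 0.86. Beside this, the S phase genes listed below stood at 233 and 234 CPM in resting B cells and at 248.8 and 264 CPM in resting T cells. The G2/M genes stood at 16.3 and 19.6 CPM in resting B cells and at 10.4 and 11.7 CPM in resting T cells.

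Single cells differed widely in cycling-confined histone UMIs even among cycling cells. Without butyrate 58 of 224 cycling cells (25.9%) had none, and with butyrate 33 of 131 (25.2%). At least 10 such UMIs were found in 41.5% and 42.7% of cycling cells, which held 98.3% and 98.2% of the UMIs, and 50% of the UMIs lay in 23 and 12 cells, 10.3% and 9.16% of the class. The share of cells that held 50% of the UMIs was similar in resting cells, 10.8% and 10.4% of resting B cells (424 and 393 cells) and 8.25% and 8.52% of resting T cells (343 and 315 cells). The UMIs per cell differed: 5 and 1 resting B cells and 0 and 0 resting T cells had 10 or more. No such UMI was found in 61.2% and 62.4% of resting B cells and in 77.4% and 77.9% of resting T cells. The depths of the classes differ as given above, which moves these shares.

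Since a few cells carry most of the UMIs, counting intervals of levels in cycling cells are narrower than the spread between cells would give. Hist1h1b was found in 38.7% (32.3 to 45.5) of 222 cycling cells without and 36.9% (28.6 to 45.8) of 130 with butyrate after each cell was thinned to 2000 UMIs, and in 54.9% and 55.0% unthinned. It was found in 4.89% and 6.02% of thinned resting B cells, and in 0.799% and 0.734% of thinned resting T cells, of which 4131 and 3679 remained. Hist1h1e, in contrast, was found in 29.8% and 26.2% of thinned resting B cells and in 14.4% and 14.5% of thinned resting T cells.

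The place in the cell cycle was read from 2 lists, 15 S phase genes (such as Mcm5, Pcna and Rrm2) and 14 G2/M genes (such as Cdk1, Ccnb1 and Plk1), as the share of S phase UMIs among the UMIs of both lists in a cell. Of 355 cycling cells, 25 had no UMI of either list and therefore no share. The median share of the other cells was 0.769, with 34 cells within 0.05 of it. Cycling-confined histones stood at 4638 CPM without and 4428 CPM with butyrate in cells at or below the median (109 and 56 cells), and at 2467 and 1050 CPM in cells above it (97 and 68 cells). The level was thus higher at or below the median in both libraries, a range that also takes in cells with more S phase than G2/M UMIs.

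A finer division separated the cells with S phase UMIs only. The lowest bin, with S shares up to 0.462, stood at 3920 and 4221 CPM (54 and 29 cells), and the next, up to the median, at 5343 and 4642 CPM (55 and 27 cells). In that second bin S phase genes stood at 2694 and 2850 CPM and G2/M genes at 1762 and 1596 CPM. Above the median, cells with some G2/M UMIs stood at 3849 and 1390 CPM (42 and 33 cells). The 55 and 35 cells with S phase UMIs only stood at 133 and 74.7 CPM, near the level in resting B cells. Their S phase genes stood at 357 and 351 CPM and their median depth was 8436 and 7866 UMIs, so these cells had little of either list.

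**Figure D3:**
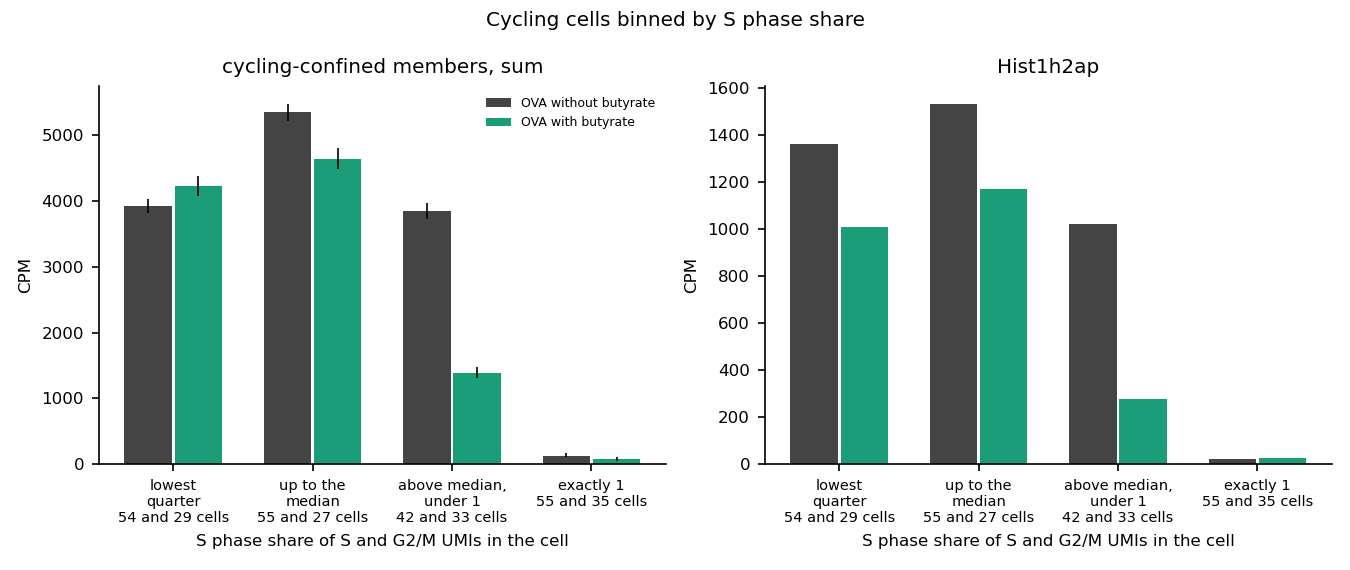
Summed CPM of the 19 cycling-confined genes (left, with 95% counting intervals) and CPM of Hist1h2ap (right, without intervals) in cycling cells in 4 bins of the S phase share, dark bars without and green bars with butyrate; cell numbers are under each bin for both libraries in that order. The sum peaks at 5343 and 4642 CPM in the bin just under the median and is 133 and 74.7 CPM in cells with S phase UMIs only, and the libraries differ most in the third bin, at 3849 against 1390 CPM.

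The other genes of histone supply were read from lists chosen with earlier results of these data known. Of 15 genes of histone mRNA processing and transcription, 2 were at least 2-fold higher in cycling cells in both libraries, among them E2f1 at over 10-fold, and 12 were under 2-fold in both. Slbp, which binds the stem-loop, stood at 193 and 211 CPM in cycling cells, 72.2 and 73.8 CPM in resting B cells and 46.7 and 46.1 CPM in resting T cells, ratios of 3.32 and 3.63. A list of 13 genes covered histone chaperones, which carry histones to DNA, and chromatin assembly. Of these 13, 3 (Chaf1a, Asf1b and Hells) were at least 10-fold, 9 at least 2-fold and 3 under 2-fold. The cycling-confined histones were picked for ratios of at least 10-fold, so setting these lists against them would give a result fixed by the sorting. Of all 59 detected clustered histone genes, 24 without and 22 with butyrate were at least 10-fold, and 7 and 7 under 2-fold.

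Histone genes outside the clusters encode mostly variants that can be placed outside DNA replication. Of 10 such genes, 2 were at least 10-fold, 6 at least 2-fold and 4 under 2-fold in both libraries. H2afz, a variant of H2A, stood at 2443 and 2708 CPM in cycling cells, with ratios of 6.90 and 7.55. H3f3a, which encodes the H3.3 variant, stood at 1665 and 1754 CPM in cycling cells and 2610 and 2767 CPM in resting B cells, and its level in cycling cells was close to that in resting B and T cells together. All 15 S phase genes were at least 2-fold and all 14 G2/M genes at least 10-fold higher in cycling cells in both libraries, with median ratios of 8.77 and 8.996 for S phase and 210 and 154 for G2/M.

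The second comparison was between the libraries with and without butyrate. It was made as log2 of CPM plus a pseudocount of 10, with over without butyrate, with a minimum of 50 UMIs per gene in a class, over the 2 libraries. The pseudocount draws the difference of low genes towards 0. In resting B cells, 36 clustered histone genes had enough UMIs, 21 were lower with butyrate and 15 higher, with a median of −0.03 against 0.03 for all 10093 genes, 38.2% of which were below 0. None was past 1.5-fold, where 0.208% of all genes were lower and 0.0396% higher. In resting T cells, 28 of 34 were lower, with a median of −0.08 against 0.01 for 10491 genes, 45.4% of which were below 0, and again 0 passed 1.5-fold, where 0.343% of all genes were lower and 0.0572% higher.

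In cycling cells, 35 of 38 clustered histone genes were lower with butyrate, with a median of −0.21 against 0.05 for all 8037 genes, 39.2% of which were below 0. Hist1h2ap alone passed 1.5-fold, at −0.72, where 1.42% of all genes were lower and 1.63% higher by that much. With a pseudocount of 1 CPM, 4 of the histone genes passed in cycling cells and 1 in resting T cells. By group, 13 of 15 cycling-confined genes were lower (median −0.27), 14 of 14 raised genes (−0.17) and 4 of 4 genes seen in resting cells (−0.21). In cycling B cells 15 of 19 genes were lower, with a median of −0.16, against −0.02 for all 4305 genes, 53.0% of which were below 0. In cycling T cells 27 of 33 were lower, with a median of −0.22, against 0.02 for all 6345 genes, 46.0% of which were below 0. These genes share the same cells and libraries, so the counts are not independent of each other.

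Within the lineages, 2 clustered histone genes were past 1.5-fold lower and 1 higher in cycling B cells, where 4.11% of all genes were lower and 2.39% higher by that much. In cycling T cells 2 were lower and 0 higher, where 1.56% of all genes were lower and 1.53% higher. The genes were Hist1h1a (−0.86) and Hist1h1d (−0.71) in cycling B cells and Hist1h2ap (−0.87) and Hist1h3f (−0.62) in cycling T cells. The higher gene was Hist1h2bc, an H2B gene chosen after its values were seen, at 21.9 CPM (14.7 to 31.4) without and 62.7 CPM (44.1 to 86.4) with butyrate in cycling B cells, from 29 and 37 UMIs (1.19).

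The sum of the 19 cycling-confined genes was 3717 CPM without and 2826 CPM with butyrate in cycling cells, a log2 difference of −0.40 (−0.44 to −0.36). Without Hist1h2ap it was −0.27, in cycling B cells −0.28 and in cycling T cells −0.49. Among cells at or below the median S phase share it was −0.07, and above it −1.23, where the sum stood at 2467 CPM in 97 cells and 1050 CPM in 68 cells. The value at or below the median joins bins of opposite direction, the lowest bin being higher with butyrate (3920 CPM, 3812 to 4030, against 4221 CPM, 4071 to 4375) and the next lower (5343 against 4642 CPM). Beside it, S phase genes stood at 1981 CPM without and 2238 CPM with butyrate in cycling cells and G2/M genes at 1796 and 1644 CPM, and the part of these shifts in the histone difference was not tested. The make-up of the cycling cells also differed, with plasma cell markers at 2762 and 1396 CPM, myeloid markers at 254 and 647 CPM and NK markers at 17.3 and 123 CPM. The 33 and 16 cycling cells in neither lineage stood at 3153 and 2335 CPM for the same sum, and the values within cycling B and T cells above leave them out.

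Hist1h2ap was lower with butyrate in every class with at least 40 UMIs in each library. In resting B cells it stood at 42.4 CPM (39.5 to 45.4) without and 30.1 CPM (27.7 to 32.5) with butyrate, and in resting T cells at 15.6 CPM (14.1 to 17.2) and 9.58 CPM (8.42 to 10.9). In resting CD4 T cells it stood at 18.8 and 8.32 CPM, in resting CD8 T cells at 14.1 and 8.74 CPM, and in cells with 1 Mki67 or Top2a UMI at 43.1 and 20.4 CPM. On the log2 scale without a pseudocount these differences were −0.50, −0.70, −1.18, −0.69 and −1.08, with no counting interval reaching 0. As a share of the UMIs of all cycling-confined genes it was 30.01% (29.3 to 30.7) without and 23.9% (22.9 to 24.9) with butyrate in cycling cells, and stood at 33.7% and 27.0% in resting B cells and at 32.5% and 24.7% in resting T cells.

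Differences of single genes in the rest of this comparison carry the pseudocount of 10 CPM. On that scale Hist1h2ap differed by −0.72 in cycling cells and by −0.39 in both resting B and resting T cells. Hist1h2ae, the H2A gene next in level, was lower by less in each of these classes. It stood at 658 and 525 CPM in cycling cells, a log2 difference of −0.32, at 21.9 and 18.2 CPM in resting B cells (−0.18) and at 7.40 and 5.41 CPM in resting T cells (−0.18). Hist1h1a stood at 86.8 and 55.6 CPM in cycling cells (−0.56), and at 2.78 and 3.01 CPM in resting T cells (0.03). Hist1h4a, with 67 and 19 UMIs in cycling cells, stood at 15.7 and 7.23 CPM (−0.57).

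The highest differences in cycling cells were those of 3 genes. In cycling cells Hist1h2ak stood at 22.9 and 27.0 CPM (0.17), Hist1h3c at 93.8 and 102 CPM (0.11) and Hist1h2bh at 14.3 and 14.9 CPM (0.03). Counting intervals of these 3 differences all span 0. In resting B cells Hist1h4i stood at 15.9 CPM (14.2 to 17.8) without and 21.5 CPM (19.5 to 23.6) with butyrate (0.28), Hist1h1c at 93.3 and 106 CPM (0.17) and Hist3h2ba at 12.03 and 13.96 CPM (0.12).

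Hist1h1e stood at 194.9 CPM (189 to 201) without and 174 CPM (168 to 180) with butyrate in resting B cells (−0.16). In resting T cells Hist1h3f stood at 4.95 and 3.32 CPM (−0.17), and Hist1h2bj (1.81 and 2.08 CPM) and Hist2h2bb (3.46 and 3.67 CPM) differed by 0.03 and 0.02. The sum of the 5 genes seen in resting cells stood at 62.6 and 62.0 CPM in resting B cells, a log2 difference of −0.01 (−0.13 to 0.10), and at 51.7 and 46.3 CPM in resting T cells, −0.16 (−0.27 to −0.04).

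**Figure D4:**
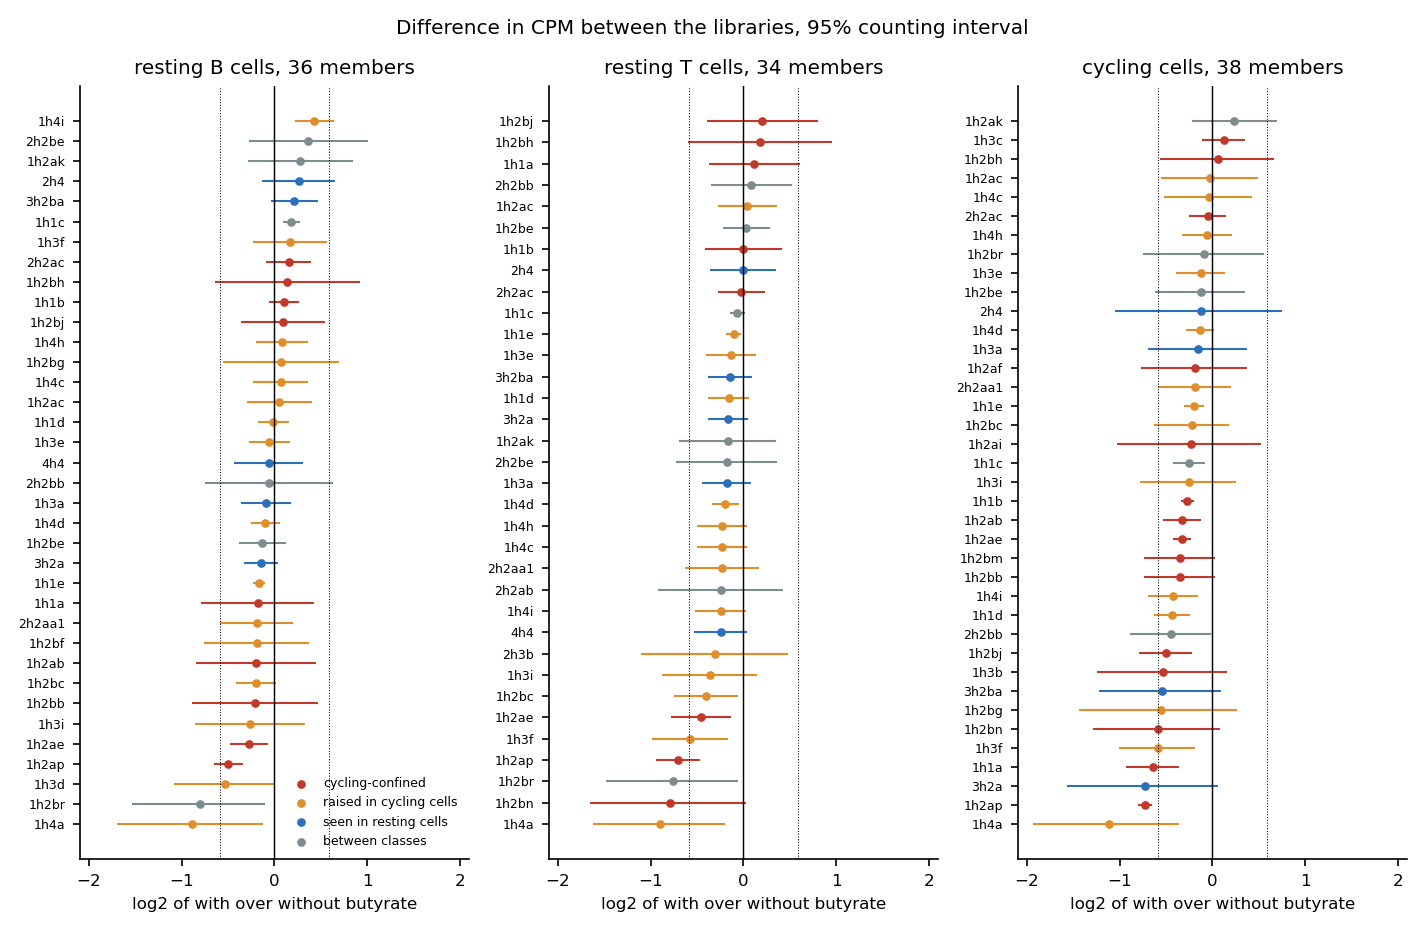
Log2 of CPM with over without butyrate, without a pseudocount, for every clustered histone gene with at least 50 UMIs in resting B cells (36 genes), resting T cells (34) and cycling cells (38), with 95% counting intervals, coloured by group; dotted lines mark 1.5-fold. Hist1h2ap has a short interval left of 0 in all 3 panels, most genes in the right panel lie left of 0, and most intervals in the left panel span it.

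Genes of the other lists were read in the same way in cycling cells. The median log2 difference, with over without butyrate, was 0.07 for the 14 histone mRNA processing genes with enough UMIs, of which 3 were lower. It was 0.15 for the 13 chaperone and assembly genes, of which 2 were lower. It was 0.11 for the 10 histone genes outside the clusters, 0.14 for S phase and −0.12 for G2/M, where 11 of 14 genes were lower. Past 1.5-fold was 1 gene of these lists, Lsm10, a subunit of the particle that cuts histone mRNA, at 22.7 and 39.6 CPM (0.60). A comparison of these lists with the histone genes was not tested.

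The groups differed in the length of their annotated transcripts. The sorting did not use this length directly, although counts per gene depend on an annotation. Of the 19 detected genes with a transcript over 800 bases, 1 without and 2 with butyrate were at least 10-fold higher in cycling cells, and their median ratio was 3.25 and 2.95. Of the 40 with shorter transcripts, 23 and 20 were at least 10-fold, with a median of 11.46 and 9.43. Some of these shorter transcripts, such as those of Hist1h2ai (393 bases) and Hist1h2bn (381 bases), hold the coding sequence only. The lengths and the stem-loop counts below therefore depend in part on how fully each gene is annotated. The stem-loop counts also depend on the pattern searched. The stem-loop was found in 9 of 19 cycling-confined genes with a median of 38.0 bases from it to the annotated end, in 16 of 23 raised genes with 266 bases and in 4 of 5 genes seen in resting cells with 906 bases. A polyadenylation signal lay near the annotated end of 4 of these 5 genes, of 4 of 23 raised genes and of 2 of 19 cycling-confined genes.

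Single genes show both sides of this pattern. The transcript of Hist3h2a runs 1643 bases past the stem-loop printed above, that of Hist4h4 2445 bases and that of Hist1h1e 1153 bases, while those of Hist1h2ap and Hist1h2ab end after 3 and 11 bases. Hist1h3a is an exception among genes seen in resting cells, with an annotated end 37 bases after the stem-loop, and Hist1h2bh among cycling-confined genes, with 1214 bases. No match to the stem-loop pattern was found within the annotated transcripts of Hist1h1b and Hist2h2ac. The annotated end is not a measured end, and which transcript form gave the UMIs was not tested.

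**Figure D5:**
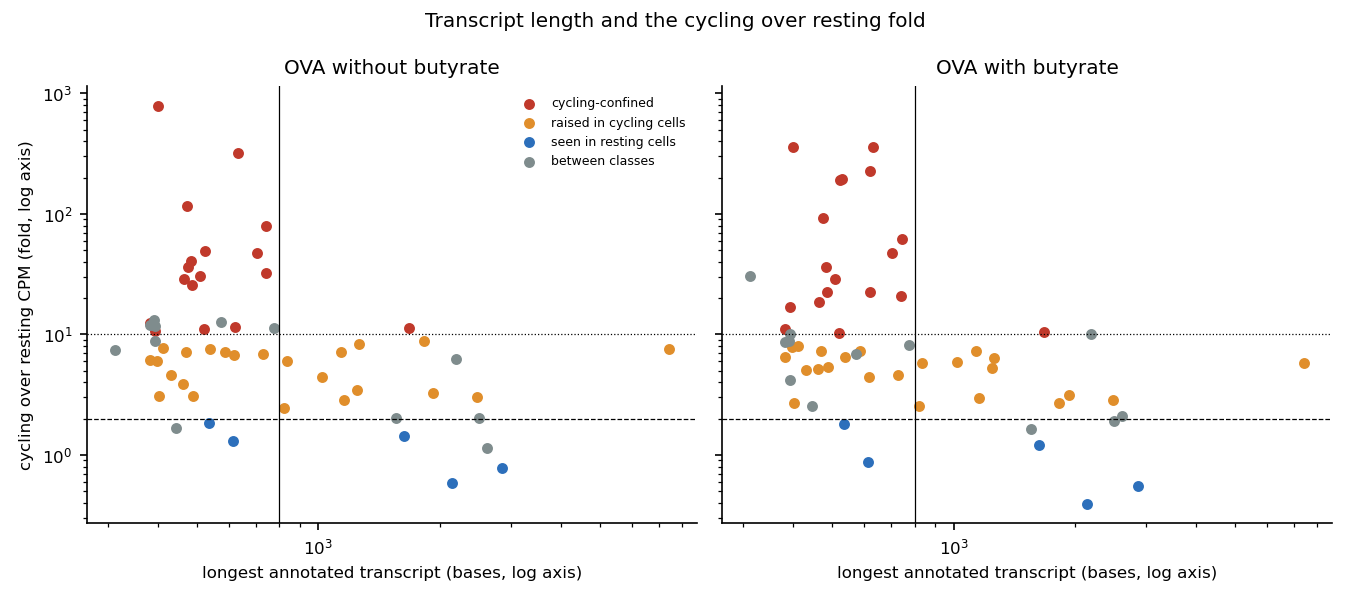
Ratio of CPM in cycling over resting cells (vertical axis, log scale) against the longest annotated transcript in bases (horizontal axis, log scale) for detected clustered histone genes, 1 panel per library, coloured by group, with lines at 2-fold, 10-fold and 800 bases; genes without a resting UMI are not drawn. Points above the 10-fold line lie left of 800 bases except for 1 gene without and 2 with butyrate.

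Promoters were described as a second feature that the sorting did not use. RefSeq promoters (GRCm38.p6, from 250 bases before to 50 after the start) were matched for 61 of the 67 genes and searched on both strands. CCAAT was present in 85.2% of them against 37.4% of all 32851 promoters, in all of the H1, H2A, H2B and H3 genes matched and in 3 of 12 H4 genes. TATAAA was present in 55.7% against 13.6%. The octamer ATTTGCAT was present in 7 of 18 H2A and 6 of 16 H2B genes and in 0 H1, H3 and H4 genes, against 1.74% of all promoters.

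By group, CCAAT was present in 19 of 19 cycling-confined genes, 15 of 20 raised genes and 2 of 3 genes seen in resting cells with a promoter. Every matched gene without CCAAT encodes H4, and no cycling-confined gene does. This difference between groups therefore cannot be told apart from the difference between families. The octamer was present in 6 of 19, 2 of 20 and 1 of 3, all of them H2A or H2B genes. Hist1h2ae, which is cycling-confined, and Hist1h2bg, which is raised, share 1 octamer in their overlapping windows, so the groups are not separate here. The 250 bases before the start are printed for Hist1h1b (chr13:21780626-21780875, minus strand), the cycling-confined gene with the highest level, and Hist3h2a (chr11:58954435-58954684, plus strand), the highest gene seen in resting cells, with these motifs in capitals on either strand.
Hist1h1b: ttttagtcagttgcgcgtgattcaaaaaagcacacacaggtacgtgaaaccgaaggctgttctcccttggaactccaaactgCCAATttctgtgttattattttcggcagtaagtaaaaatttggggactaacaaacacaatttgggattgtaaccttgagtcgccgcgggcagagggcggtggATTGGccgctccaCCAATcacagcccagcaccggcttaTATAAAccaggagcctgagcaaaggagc
Hist3h2a: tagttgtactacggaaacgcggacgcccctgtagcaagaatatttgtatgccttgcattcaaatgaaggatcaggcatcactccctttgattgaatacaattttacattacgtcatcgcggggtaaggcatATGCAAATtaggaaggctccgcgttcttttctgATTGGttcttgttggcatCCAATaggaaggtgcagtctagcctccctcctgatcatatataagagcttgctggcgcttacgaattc

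Hist1h1b holds CCAAT 168, 66 and 53 bases before the start and TATAAA 28 bases before it. Hist3h2a holds the octamer at 119 and CCAAT at 86 and 68 bases before the start, and the letters TATAAA are not in this window. A match of letters is a description of the sequence and not a measured site.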

How the data were processed

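Per the labels, mediastinal lymph node cells were captured with 10x Genomics 3′ v.3 chemistry, and Cell Ranger 6.0.1 and mm10 are named in the submitters' processing notes. The authors deposited whole-number UMI counts for every gene in every cell, with no normalization, and the annotation release is not given in the sources used here. The study's methods filter cells at 10% mitochondrial UMIs and 200 genes, and the deposited counts still held such cells.

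From these counts, 186 cells without and 327 with butyrate were removed by those filters, and 721 and 592 as doublets. Doublets were taken in order of Scrublet score (scanpy 1.11.5) up to the rate expected for the number of cells. Of 269 and 165 cells that met the cycling limit before this step, 45 and 34 were removed as doublets, a larger share than of all cells. A B or T cell had at least 3 UMIs of its markers and 4 times those of the other lineage. UMIs were summed per class and library. The sorting of genes by ratio and the log2 differences were tested on simulated sums of UMIs with known folds. For the sorting, these folds lay away from the 2-fold and 10-fold limits, so sorting near the limits was not tested. Filters, doublet removal, cell classes and sequence steps were not simulated. Intervals are exact Poisson, binomial (Clopper-Pearson) or conditional binomial at 95%. With 1 library per condition no test was made.

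The members, lists and groups were chosen with earlier results of these data known. Named genes are the 6 highest cycling-confined and resting genes, the 6 raised genes with most UMIs, the 3 lowest and 3 highest differences per class, and genes said to be chosen otherwise. Sequences came from GENCODE M21 and RefSeq, and all 67 genes were matched by identifier. Alternatives are in the closing section. Protein sequences were not used here. Python 3.11.15, numpy 2.4.6, scipy 1.17.1 and pandas 2.3.3 were used.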

Additional observations from a re-analysis of the deposited data

Results flagged for a closer look

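Hist1h4i, an H4 gene, differed in direction between resting T cell types. In resting CD4 T cells it stood at 9.24 CPM without and 13.4 CPM with butyrate. The log2 difference, taken without a pseudocount here and for the other values flagged, was 0.5349 with a counting interval of 0.004 to 1.08. In resting CD8 T cells Hist1h4i stood at 9.88 and 5.31 CPM, a difference of −0.8962 (−1.32 to −0.48).

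Hist1h3c, an H3 gene, differed in direction between parts of the cell cycle. In cycling cells with an S phase share at or below the median it stood at 116 CPM without and 162 CPM with butyrate, a log2 difference of 0.4809 (0.22 to 0.74). Above the median it stood at 64.6 and 36.0 CPM, a difference of −0.8417 (−1.39 to −0.32). Both genes were singled out because their intervals lay on opposite sides of 0. All clustered histone genes with at least 50 UMIs in each class were searched over several pairs of classes, with no correction for their number. Neither difference between classes was tested, as each condition has 1 library.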

How the results depend on the processing

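No paired analysis was possible because each condition has 1 library. Leaving out a replicate was impossible for the same reason. Over 63 results, 732 values were recomputed, of which 560 stayed close to the reported value and 171 moved. Only 1 reversed a value whose counting interval lay apart from 0. Members seen in resting cells numbered 8 without doublet removal, 8 at Scrublet's own threshold, 10 with cycling cells taken from 1 UMI, 8 when ribosomal, mitochondrial and immunoglobulin genes were left out of the scaling, 8 after thinning to 2000 UMIs and 11 with limits of 5-fold and 3-fold. Cycling-confined members numbered 10 after thinning and 36 with limits of 5-fold and 3-fold.

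The share of histone UMIs in cycling cells, without and with butyrate, was 49.26% and 35.92% without doublet removal, 50.95% and 36.92% at Scrublet's own threshold, 49.71% and 33.41% at 5% mitochondrial UMIs, 49.87% and 34.26% from 1 UMI, and 45.80% and 29.84% from 4 UMIs. After thinning it was 16.18% and 9.93%, since every cell then holds the same number of UMIs. The share of all UMIs in cycling cells then also falls, as it follows their share of cells. Cycling cells were 2.553% and 1.635% of kept cells, and held 8.22% and 5.06% of all UMIs before thinning. The log2 difference of the cycling-confined sum in cycling cells was below 0 in all 17 alternatives. It was −0.335 without doublet removal, −0.32 at Scrublet's own threshold, −0.62 from 1 UMI, −0.33 from 4 UMIs, −0.46 with the other scaling, −0.32 as a mean over cells and −0.28 after thinning. In alternatives chosen after seeing the data it was −0.27 without Hist1h2ap, −0.28 in cycling B cells, −0.49 in cycling T cells, −0.067 at or below the median S phase share and −1.23 above it.

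Members past 1.5-fold in cycling cells numbered 2 at 5% mitochondrial UMIs, 2 from 1 UMI, 2 from 4 UMIs, 3 with the other scaling, 2 after thinning and 4 with a pseudocount of 1 CPM, which also gave 1 in resting T cells. Of 589 log2 ratios of named genes, 12 changed sign, in 8 of 52 results. Hist1h2ae in resting T cells reversed to 0.0018 after thinning, and the others had counting intervals that span 0 as reported. In cycling over resting cells they were Hist3h2ba with butyrate (0.06 without doublet removal, 0.06 at Scrublet's own threshold, 0.23 from 4 UMIs), Hist4h4 without (0.14 after thinning) and Hist2h4 with butyrate (−0.64 after thinning). In the comparison of libraries they were Hist1h2ak (lowest −0.14), Hist1h3c (−0.10) and Hist1h2bh (−0.01) in cycling cells and Hist1h1a (−0.02) in resting T cells. Where no construction is named, the cause was not tested. The limits of 10-fold and 2-fold set which group a gene near them falls in, and members with few UMIs have wide intervals.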
